A study of Homo sapiens with 6 samples.

Results

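The T-run lengths of the noncoding RNA Uc283+a were compared by setting the 2 arrays labelled variant 2 against the 2 labelled variant 1, which are 4 of the 6 arrays of the study. All cells were HCT-116, an established human colorectal cancer line, transiently transfected with a form of Uc283+a that carries a run of 8 T (variant 1) or of 9 T (variant 2). The other 2 arrays held cells given the empty vector and entered no test here, although their values are given beside some results. Each array read 4 µg of total RNA, labelled by reverse transcription from a biotinylated random primer. The members were all human miRNA probes and all probes named for ultraconserved regions (uc.), chosen by name. They came to 1773 of the 2997 probes, with 1115 named for mature miRNAs, 626 for precursors and 32 for ultraconserved regions.

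MicroRNAs are cut from long primary transcripts, first in the nucleus by the Microprocessor, which pairs the nuclease Drosha with its RNA-binding partner DGCR8, and then in the cytoplasm by Dicer. The mature strand guides Argonaute to messenger RNAs mainly through its seed, the bases near its 5′ end. Uc283+a is a long noncoding RNA from an ultraconserved region, and the study concerns its direct effect on the processing of primary miRNA transcripts, with miR-195 as the miRNA it is best known for. The comparison of the T runs asks whether the length of the run alters the miRNA profile.

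The mature sequences below belong to mature-named probes with the smallest unadjusted p among probes above background whose groups did not overlap, which were named by rule although none passed the test. They are RefSeq's, on GRCh38.p14, and capitals mark the seed (bases 2 to 8). The first 4 read higher with variant 2.
hsa-miR-593*: aGGCACCAgccaggcauugcucagc
hsa-miR-339-3p: uGAGCGCCucgacgacagagccg
hsa-mir-1913: uCUGCCCCcuccgcugcugcca
hsa-miR-1306: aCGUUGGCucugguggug

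The next 5 read lower with variant 2, and no seed was shared among the 9.
hsa-miR-548t: cAAAAGUGaucgugguuuuug
hsa-miR-604: aGGCUGCGgaauucaggac
has-let-7f-1*: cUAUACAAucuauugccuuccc
hsa-miR-4317: aCAUUGCCagggaguuu
hsa-miR-556-3p: aUAUUACCauuagcucaucuuu

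On that build hsa-miR-593* is the 5′ strand of MIR593, at chr7:128081876-128081900 on the plus strand within SND1. hsa-miR-339-3p lies at chr7:1022955-1022977 on the minus strand within CHLSN, and hsa-mir-1913 at chr6:166509364-166509385 on the minus strand within RPS6KA2. hsa-miR-1306, now called miR-1306-3p, lies at chr22:20086112-20086129 on the plus strand within DGCR8, the gene of Drosha's partner. hsa-miR-548t lies at chr4:173268169-173268189 on the plus strand within GALNT7, and hsa-miR-604 at chr10:29545019-29545037 on the minus strand within SVIL. The star strand of let-7f-1 lies at chr9:94176409-94176430 on the plus strand, hsa-miR-4317 at chr18:6374399-6374415 on the minus strand within L3MBTL4, and hsa-miR-556-3p at chr1:162342600-162342621 on the plus strand within NOS1AP.

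The mature let-7 miRNAs are shown because their probes all read lower with variant 2 where they stood above background. They share 1 seed and differ from each other at a few bases.
hsa-let-7a: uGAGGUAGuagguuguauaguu
has-let-7b: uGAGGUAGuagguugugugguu
hsa-let-7c: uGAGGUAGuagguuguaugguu
hsa-let-7d: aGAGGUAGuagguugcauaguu
hsa-let-7e: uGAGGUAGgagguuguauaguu
hsa-let-7f: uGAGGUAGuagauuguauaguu
hsa-let-7g: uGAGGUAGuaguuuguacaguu
hsa-let-7i: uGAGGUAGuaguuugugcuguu

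hsa-let-7a comes from 3 loci, of which MIRLET7A2 lies at chr11:122146568-122146589 on the minus strand. has-let-7b lies at chr22:46113691-46113712, hsa-let-7c at chr21:16539838-16539859 and hsa-let-7d at chr9:94178841-94178862, all on the plus strand. hsa-let-7e lies at chr19:51692793-51692814 within SPACA6, hsa-let-7g at chr3:52268336-52268357 within WDR82, and hsa-let-7i at chr12:62603691-62603712. 1 of the 2 loci of hsa-let-7f lies at chr9:94176353-94176374, on the same hairpin as the star strand printed above.

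No probe passed the test between the variants. Of the 1773 probes, 0 (0%) had a Benjamini-Hochberg adjusted p under 0.05 in limma, with 0.882 the smallest. At an unadjusted p under 0.05, 45 probes were higher with variant 2 (2.54%) and 44 lower (2.48%), where 88.65 in all would be expected without any difference. The middle of the profile was level, with a median log2 difference of 0.00 over all probes (895 higher, 50.5%, and 877 lower, 49.5%) and of -0.02 over the probes above background. Above background means here that all 4 variant arrays read the probe higher than 95% of their random-sequence probes. There were 400 such probes, 267 mature-named, 131 precursor-named and 2 uc.

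The arrays of the variants lay about as close to each other as repeat arrays did. Over those 400 probes the log2 differences had an SD of 0.46 between the variant 1 arrays, and of 0.67 between the variant 2 arrays. Variant 2 array 1 differed from the variant 1 arrays with an SD of 0.51 and 0.50, whereas variant 2 array 2 differed from them with an SD of 0.74 and 0.76. Variant 2 array 2 therefore stood apart from the other 3, including its own repeat. The 2 variant arrays did not overlap for 629 probes (35.5%), with variant 2 higher for 312 (17.6%) and lower for 317 (17.9%). Among the 400 probes above background these were 160 (40%), with 73 higher (18.2%) and 87 lower (21.8%).

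**Figure D1:**
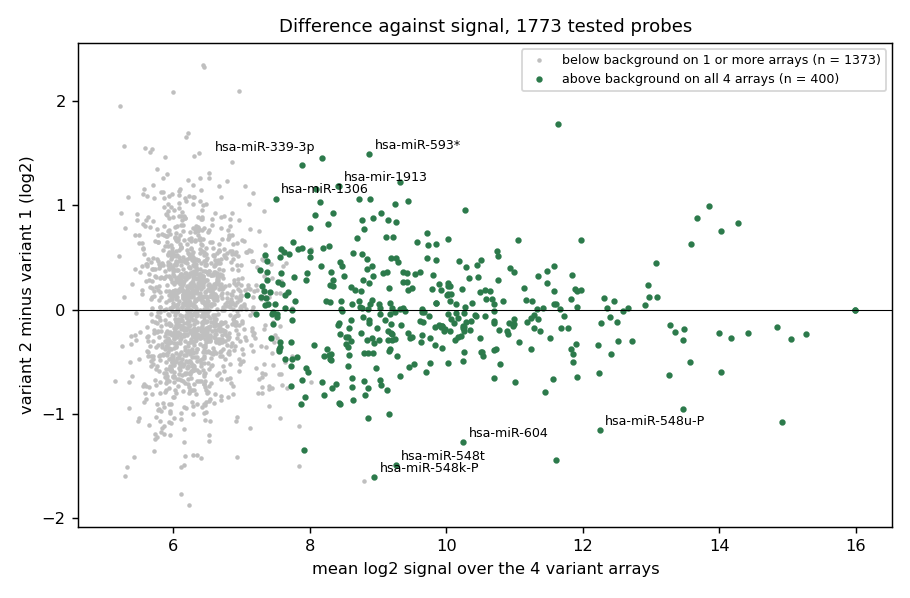
Each point is 1 of the 1773 tested probes, with the mean log2 signal of the 4 arrays on the x axis and the log2 difference, variant 2 minus variant 1, on the y axis. The named probes above background, such as hsa-miR-593* at 1.49 and hsa-miR-548k-P at -1.60, sit at the edge of a cloud centred on 0.

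The plot of difference against signal shows the spread of the differences among bright and dim probes. A log2 difference beyond 1 in either direction, which is 2-fold, was seen for 121 of the 1773 probes, 69 higher and 52 lower. It was seen for 23 of the 400 probes above background, 14 higher and 9 lower, and for 98 of the 1373 others. The 95% interval of the difference stayed within 1 for 122 probes (6.88%) and for 63 of the 400 above background (15.8%). Of these 63, hsa-miR-1273c and hsa-miR-543-P stood at the scanner's ceiling, where no difference could be read. For the other 61 a 2-fold difference lay outside the interval. For the rest of the 400 it did not, since the interval of a probe above background reached a median of 0.94 to either side. The number of arrays, 2 a group, limits this precision, and since no label calls them separate cultures the p-values cover the spread between these samples alone, which may be technical. No probe names Uc283+a, whose level was not analysed here, so its level and the length of its T run cannot be told apart.

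Among probes above background, the higher readings with variant 2 were led by hsa-miR-593*. Its log2 signal was 8.09 and 8.16 with variant 1 and 9.31 and 9.92 with variant 2. Both variant 2 arrays were higher than both variant 1 arrays, and the mock arrays, at 8.67 and 8.82, fell between. The difference was 1.49 (SE 0.39, 95% interval 0.55 to 2.43, adjusted p 0.882 in limma). hsa-miR-339-3p, a strand of the miR-339 hairpin, read 7.55 and 7.37 with variant 1 and 8.47 and 9.35 with variant 2, a difference of 1.45 (0.42 to 2.48). Its groups did not overlap either, with array 2 of variant 2 the highest of the 4.

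hsa-mir-1913 read 7.67 and 7.99 with variant 1 and 8.77 and 9.26 with variant 2, a difference of 1.18 (0.25 to 2.12). hsa-miR-1306, which lies within DGCR8, read 6.97 on both variant 1 arrays and 8.19 and 7.88 with variant 2, a difference of 1.06 (0.19 to 1.94). The variant 1 arrays were nearly identical for this probe and both variant 2 arrays lay above them. Its variant 1 values lay close to the level of 6.76 and 6.94 that 95% of random-sequence probes stayed under. They were below the highest random-sequence probe of those arrays, at 7.49 and 7.16. The other probes named on this side were hsa-mir-560-P at 1.38, hsa-miR-1300 at 1.22, hsa-miR-3125-P at 1.18 and hsa-miR-1267-P at 1.06. For hsa-miR-1300 the mock arrays stood at 10.37 and 7.54, further apart than the variants were. A probe outside the rule for named probes had the largest difference above background and was picked out after its value was seen. It is hsa-miR-3117, at 1.77 (SE 0.93), with an unadjusted p of 0.101 in limma.

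Probes for the miR-548 family, primate miRNAs that arose from transposable elements, held 3 of the 8 places among the lower readings. hsa-miR-548t read 9.68 and 10.34 with variant 1 and 8.39 and 8.65 with variant 2, a difference of -1.49 (SE 0.41, 95% interval -2.46 to -0.52). The precursor-named hsa-miR-548k-P read 9.61 and 9.89 against 8.59 and 7.71, a difference of -1.60 (-2.65 to -0.56). The precursor-named hsa-miR-548u-P, the brightest of the family, read 12.74 and 12.91 against 11.64 and 11.70, a difference of -1.15 (-2.01 to -0.30). In all 3 both variant 2 arrays were below both variant 1 arrays, with an adjusted p of 0.882 each in limma. The mock arrays of hsa-miR-548u-P stood at 11.44 and 12.81, 1 beside each variant.

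The miR-548 family as a whole did not go the same way. Of its 56 probes 33 were higher and 23 lower with variant 2, with a median difference of 0.10, against 0.00 over all probes. Of the 9 above background, 3 were higher and 6 lower, with a median of -0.31. These counts include the lower probes named above. The other members above background ran from -0.31 for hsa-miR-548h2-P to 0.27 for hsa-mir-548a2-P. hsa-miR-548h was among the bright ones, with 10.39 and 9.62 for variant 1 and 10.27 and 9.92 for variant 2, where the groups overlapped. The family also held the smallest unadjusted p of the whole comparison. It belonged to hsa-miR-548a-5p, which read 7.13 and 7.22 with variant 1 and 5.30 and 5.31 with variant 2, a difference of -1.87 (SE 0.36, unadjusted p 0.0014, adjusted p 0.882 in limma). That probe was above background on the variant 1 arrays alone, and the mock arrays, at 5.66 and 5.46, were as low as variant 2.

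The other lower readings spread over unrelated miRNAs. hsa-miR-604 read 10.71 and 11.06 with variant 1 and 9.82 and 9.40 with variant 2, a difference of -1.27 (-2.20 to -0.35). hsa-miR-4317 read 12.52 and 12.16 against 11.47 and 10.31, a difference of -1.44 (-2.61 to -0.28). In both, array 2 of variant 2 was the lowest of the 4 and the groups did not overlap. The precursor-named hsa-miR-4329-P, close to the top of the scale, read 15.59 and 15.33 against 14.82 and 13.94, a difference of -1.08 (-2.12 to -0.04). hsa-miR-556-3p read 9.67 and 9.66 against 9.02 and 8.30, a difference of -1.003 (-1.98 to -0.03).

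**Figure D2:**
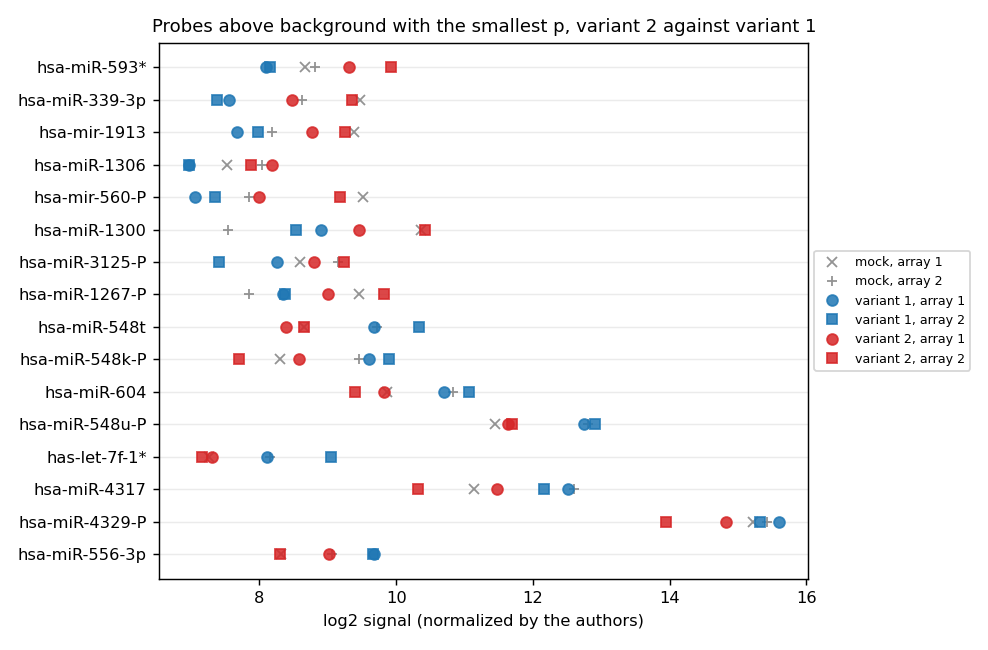
Log2 signal on every array for the named probes above background, with 1 symbol and colour per group (variant 1, variant 2, mock). The variant arrays do not overlap in any of them, as the rule for naming them requires, and the mock arrays often lie 1 beside each variant.

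The mock arrays show how wide the spread between repeats was for these same probes. The plot of named probes gives all 6 arrays. Of the 8 higher probes, mock array 1 lay nearer to variant 2 than to variant 1 in 7 and mock array 2 in 3. Of the 8 lower probes, mock array 1 lay nearer to variant 2 in 7 and mock array 2 in 1. The 2 mock arrays stood a median of 1.02 apart in the higher probes and 1.01 in the lower ones, and their gap was at least as large as the difference between the variants in 4 and 2 of them. Over the probes above background, the log2 differences between mock array 1 and variant 2 arrays 1 and 2 had an SD of 0.72 and 0.69. Between mock array 1 and variant 1 arrays 1 and 2 the SD was 0.74 and 0.80. Why mock array 1 lay nearer to variant 2 in most of the named probes was not tested.

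The let-7 family, tumour-suppressor miRNAs that repress RAS and HMGA2 and whose maturation LIN28 blocks, was read by 22 probes together with miR-98. Of these 3 were higher and 19 lower with variant 2, the median difference was -0.45, and none passed the test. The groups did not overlap for 11 of the lower probes and 1 of the higher ones, against shares of 17.9% lower and 17.6% higher over all probes. Above background stood 11 probes, all of them lower, with differences from -1.34 to -0.11 and a median of -0.61, and 7 of them did not overlap between the variants. Among all probes above background 208 of 400 were lower, 87 of them (21.8%) without overlap. These 11 probes are not 11 separate observations, since the mature strands printed above differ at few bases and can share label.

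has-let-7b, the brightest of the family, read 12.47 and 12.62 with variant 1 and 12.22 and 11.65 with variant 2, a difference of -0.61 (SE 0.39, 95% interval -1.54 to 0.32). hsa-let-7a read 12.11 and 12.38 against 11.74 and 11.45, a difference of -0.65 (-1.54 to 0.24). Neither pair of groups overlapped, and the mock arrays, at 12.42 and 12.41 for has-let-7b and 12.08 and 12.32 for hsa-let-7a, lay near variant 1. hsa-let-7c differed by -0.67, hsa-let-7d by -0.66 and the precursor-named hsa-let-7a2-p by -0.54, also without overlap. hsa-let-7e at -0.16, hsa-let-7f at -0.23, hsa-let-7g at -0.11 and hsa-let-7i at -0.24 overlapped between the variants. The members a to d thus read further below variant 1 than the members e to i, a contrast that was not tested.

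**Figure D3:**
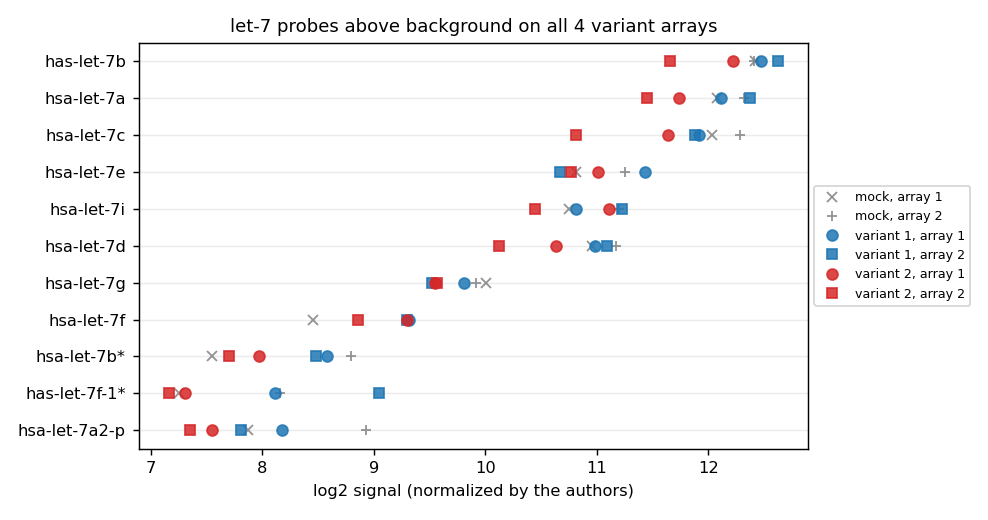
Log2 signal of the let-7 family probes above background on every array, with 1 symbol and colour per group. Variant 2 array 2 is the lowest of the variant arrays in most of them, and hsa-let-7e, hsa-let-7f, hsa-let-7g and hsa-let-7i overlap between the variants.

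The star strands of let-7, the passenger strands from the other arm of the hairpin, were dimmer. has-let-7f-1*, at 8.11 and 9.05 with variant 1 and 7.31 and 7.16 with variant 2, had the largest difference of the family, -1.34 (-2.40 to -0.29). A second probe of the same name, spelled hsa-let-7f-1*, read 8.06 and 6.62 against 7.72 and 6.42, a difference of -0.27 with overlapping groups. The 2 probes thus did not give the same value for 1 strand, and the second was above background on 2 of the 4 arrays. hsa-let-7b* read 8.58 and 8.48 against 7.97 and 7.70, a difference of -0.69 without overlap.

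The plot of let-7 probes shows that variant 2 array 2 was lower than variant 2 array 1 in most members. Without it the median of the 22 probes was -0.30, and without variant 2 array 1 it was -0.60. Leaving out a variant 1 array gave -0.49 and -0.53. With a linear trend on GC content taken from each array, the median of the mature-named members above background was -0.47. Without that step the median of the 11 probes above background, the precursor-named hsa-let-7a2-p included, was -0.61. Mouse-named probes for the same miRNAs gave a smaller shift. Of the 9 that stood above background 7 were lower and 5 were lower without overlap, with a median of -0.26 and a range from -1.62 to 0.03. The 9 human-named probes of the same names were all lower, 5 of them also without overlap, with a median of -0.61. Of all tested probes above background, which hold no mouse-named ones, 21.8% were lower without overlap.

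miR-195 belongs to the miR-15 and miR-16 seed family, which restrains the cell cycle through cyclins and CDC25A, and is the miRNA for which this noncoding RNA is known. Its seed is that of miR-497, made from the same transcript, and of miR-16.
hsa-miR-195: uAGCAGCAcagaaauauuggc
hsa-miR-497: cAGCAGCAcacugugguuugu
hsa-miR-16: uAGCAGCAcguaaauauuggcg

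hsa-miR-195 and hsa-miR-497 are neighbours on GRCh38.p14, at chr17:7017667-7017687 and chr17:7017979-7017999, both on the minus strand.

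hsa-miR-195 read 8.42 and 8.58 with variant 1 and 8.98 and 8.46 with variant 2, and the groups overlapped. The difference of 0.22 had a 95% interval from -0.71 to 1.14; a miss of the threshold does not show that the variants act alike. Both mock arrays, at 9.35 and 9.23, were above all 4 variant arrays. hsa-miR-195*, the passenger strand, was above background on 1 array and its difference of -0.69 had an interval from -2.67 to 1.29. hsa-miR-497 read 9.14 and 9.71 against 9.83 and 10.26, a difference of 0.61 (-0.36 to 1.59) without overlap. Over the 15 probes of the seed family 10 were higher and 5 lower, with a median difference of 0.10, which was -0.12 without variant 1 array 2.

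The miR-17-92 cluster and its paralogs, growth-promoting miRNAs that MYC induces, were read by 27 probes. Of these 9 were higher and 18 lower with variant 2, with a median difference of -0.21. All 9 above background were lower, where 208 of all 400 probes above background were. The groups did not overlap for 7 of the lower probes and 3 of the higher ones, against shares of 17.9% and 17.6% over all probes. Without variant 2 array 2 the median was -0.02. hsa-miR-20a read 11.03 and 11.06 with variant 1 and 10.78 and 10.26 with variant 2 (-0.53), and hsa-miR-106b read 9.40 and 9.87 against 9.30 and 8.71 (-0.63). hsa-miR-17 itself read 11.04 and 11.10 against 10.96 and 10.90, a difference of -0.14 (SE 0.36). These 3 miRNAs did not overlap between the variants, with variant 2 array 2 the lowest each time, and none passed the test. For hsa-miR-106a, hsa-miR-25, hsa-miR-92a and hsa-miR-93, also above background, the groups overlapped. hsa-miR-92a-2* had the smallest unadjusted p of the clusters, 0.0252 in limma, at -1.49, but was above background on 1 array alone.

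The members of the miR-17 seed are printed for comparison with let-7.
hsa-miR-17: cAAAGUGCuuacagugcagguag
hsa-miR-20a: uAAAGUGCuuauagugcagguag
hsa-miR-93: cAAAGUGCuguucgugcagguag
hsa-miR-106b: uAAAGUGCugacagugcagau

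hsa-miR-17 and hsa-miR-20a lie in 1 cluster, at chr13:91350618-91350640 and chr13:91351072-91351094 on the plus strand. hsa-miR-93 and hsa-miR-106b lie within MCM7 on the minus strand, at chr7:100093815-100093837 and chr7:100094043-100094063.

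Among miRNAs whose cropping by the Microprocessor is known to be regulated, by p53, SMAD proteins or KSRP, 9 of 27 probes were higher and 18 lower. Their median difference was -0.21, the 10 above background were all lower, and 10 of the 27 were lower without overlap, where 317 of all 1773 probes (17.9%) were. Without variant 2 array 2 their median was -0.03. The list holds members of let-7 and of the miR-17 clusters, so it is not separate from them. hsa-miR-145*, a strand of the miR-143/145 cluster that colorectal tumours often lose, read 7.98 and 8.71 against 7.55 and 7.46, a difference of -0.84 (-1.81 to 0.14). hsa-miR-21, a well-known oncogenic miRNA, read 10.27 and 10.43 against 10.33 and 10.15, a difference of -0.11 (-0.98 to 0.75).

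miRNAs made without Drosha or DGCR8, such as mirtrons, which splicing excises, held many bright probes. Of 37 probes 27 were above background, 18 were higher and 19 lower, and the median difference was -0.00. For 8 of the 27 the whole 95% interval lay within 1, so a 2-fold difference was outside it. hsa-miR-320e, the brightest, read 12.45 and 12.39 with variant 1 and 12.42 and 12.58 with variant 2 (0.08, interval -0.78 to 0.94). hsa-miR-1227, a mirtron, read 9.94 and 10.15 against 9.96 and 10.04 (-0.04, interval -0.90 to 0.82). hsa-miR-1229, also a mirtron, was the lowest of the list above background, with 11.74 and 11.93 against 11.11 and 10.98 (-0.79, interval -1.66 to 0.07). The highest was hsa-miR-1225-3p, with 9.59 and 8.24 against 9.56 and 10.36 (1.04, interval -0.29 to 2.37), where the groups overlapped.

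Probes whose names overlap tRNA, Y RNA or vault RNA were among the brightest. Of these 18 probes 7 were higher and 11 lower, with a median of -0.11, which was 0.22 without variant 2 array 2. hsa-miR-1280, a name since assigned to a tRNA fragment, read 14.99 and 14.86 with variant 1 and 15.45 and 14.05 with variant 2, so the variant 2 arrays lay on either side of the variant 1 arrays. hsa-miR-1260 read 13.93 and 13.96 against 13.56 and 12.43, a difference of -0.95 (-2.08 to 0.18) without overlap. Of the other brightest mature-named probes, hsa-miR-553 differed by -0.23, hsa-miR-92a by -0.28, hsa-miR-1260b by -0.23 and hsa-miR-212 by -0.27. hsa-miR-923, at 13.81 and 13.91 against 14.10 and 15.28, differed by 0.83 (-0.32 to 1.98).

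In the remaining lists no member passed the test, and most of their medians changed sign when 1 array was left out or a filter applied. The median difference was -0.07 for the miR-29 family (2 higher, 5 lower), 0.01 for the miR-30 family (6 and 5), -0.16 for the epithelial miR-200 family (4 and 6) and -0.08 for the miR-23, miR-27 and miR-24 clusters (5 and 6). It was 0.04 for p53-induced miRNAs (13 and 10), -0.14 for colorectal oncomiRs (5 and 12) and -0.18 for colorectal tumour-suppressor miRNAs (8 and 11). The imprinted 14q32 cluster, with 100 probes, had 46 higher and 54 lower, and the placental C19MC cluster, with 75, had 38 and 37. Embryonic stem cell miRNAs of the miR-302 and miR-371 clusters, with 16 probes, had 9 and 7 and a median of 0.06. hsa-miR-200c, which keeps cells epithelial, read 10.29 and 10.31 with variant 1 and 10.25 and 9.83 with variant 2, a difference of -0.26 (-1.16 to 0.63).

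Markers of the labelled tissue were present in part. The miR-200 family was above background for 3 of 10 probes, with hsa-miR-200c the brightest, whereas 0 of the 7 probes for the intestinal miR-192, miR-194 and miR-215 were above background. Over all tested probes 400 of 1773 were above background. Of the marker lists of other cell types, 1 of 12 haematopoietic, 2 of 17 muscle, 5 of 13 neural, 1 of 2 liver and 1 of 6 fibroblast probes were above background, with median differences of -0.32, 0.11, 0.06, -0.37 and 0.14. The mean log2 signal of the haematopoietic list was 6.43 and 6.59 with variant 1 and 6.36 and 6.28 with variant 2, and that of the fibroblast list 6.18 and 6.60 against 6.49 and 6.88. It was 6.62 and 6.68 against 6.74 and 6.87 for the muscle list and 8.19 and 8.03 against 8.17 and 8.13 for the neural list. hsa-miR-122, the liver marker, stood at 9.46 and 9.83 against 9.68 and 9.61. These lists name other cell types, whereas all cells here were HCT-116, and their part in the results was not tested.

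The difference moved with base composition. RefSeq mature sequences were found for 218 of the 267 mature-named probes above background (81.6%). Across these probes the difference between the variants correlated with the GC content of the mature sequence, with a Pearson r of 0.33 and a Spearman rho of 0.28, as a description of points that share the same 4 arrays. The 62 probes over 60% GC had a median difference of 0.18 (37 higher, 25 lower), the 125 between 40% and 60% one of -0.15 (47 and 77), and the 31 at or below 40% one of -0.14 (9 and 22). The mature-named probes printed first follow this order in part, from 72.73% GC in hsa-mir-1913 and 69.57% in hsa-miR-339-3p to 38.1% in hsa-miR-548t and 27.27% in hsa-miR-556-3p.

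**Figure D4:**
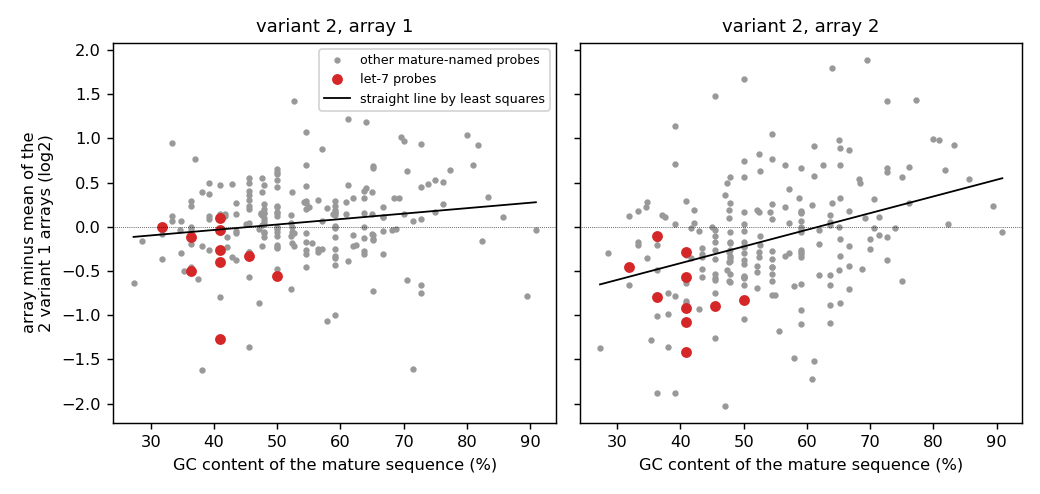
Log2 signal of each variant 2 array minus the mean of the variant 1 arrays, against the GC content in percent of the RefSeq mature sequence. Each variant 2 array has its own panel, with 1 point for each of 218 mature-named probes above background and a least-squares line. The let-7 probes, marked, lie below 0 for variant 2 array 2, whereas hsa-let-7i lies above 0 for array 1. The points above 60% GC lie higher on average.

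As the plot of difference against GC content shows, the trend was slight beside the scatter, and it also appeared within a group. For variant 2 array 2 minus variant 2 array 1 the correlation with GC content was 0.28, and for variant 1 array 2 minus array 1 it was -0.07. Against the variant 1 mean it was 0.17 for variant 2 array 1 and 0.37 for variant 2 array 2, and 0.09 and 0.05 for the mock arrays. Runs of the same base showed less. The 43 sequences with a run of 3 or more A had a median difference of -0.17, against -0.08 for the 175 others, and the 49 with a run of 3 or more U one of -0.08, against -0.12 for the 169 others. With a linear GC trend taken from each array, which was chosen after the data were seen, the difference was 1.36 for hsa-miR-593*, -1.30 for hsa-miR-548t, -1.33 for hsa-miR-604 and -0.68 for hsa-miR-556-3p. No probe passed then either.

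The processing of primary transcripts was approached by setting the mature-named probe of a miRNA against its precursor-named probe on the same array. The array's names do not say whether a precursor-named probe reads the primary or the precursor form. Of 604 such pairs 0 (0%) passed the test in limma, with 0.918 the smallest adjusted p. Unadjusted, 17 pairs with a p under 0.05 were higher with variant 2 and 15 lower, where 30.2 in all would be expected without any difference. The 2 groups did not overlap for 34.9% of the pairs and for 34.5% of the 58 pairs with both probes above background. Over these 58 pairs the mature signal exceeded the precursor signal by a median of 0.26 and 0.31 with variant 1 and 0.42 and 0.33 with variant 2. Both variant 2 medians were higher, with an exact permutation p of 0.333, which is the smallest that 2 arrays against 2 can give. The differences within the 58 pairs went the other way, with a median of -0.07 (23 pairs higher, 35 lower). The mock medians, at 0.18 and 0.75, stood further apart than those of the variants. Over all 604 pairs the medians overlapped, at 0.0858 and -0.0213 with variant 1 and 0.093 and 0.049 with variant 2 (exact permutation p 0.667).

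hsa-miR-940 had the smallest unadjusted p of the 58 pairs. Its mature-minus-precursor log2 value was 0.12 and 1.02 with variant 1 and 2.14 and 1.86 with variant 2, a difference of 1.43 (95% interval 0.05 to 2.82). hsa-miR-1306 gave -2.54 and -2.25 against -0.28 and -1.59, a difference of 1.46 (-0.02 to 2.93), in which its mature-named probe was higher by 1.06 and its precursor-named probe lower at -0.40. Both variant 2 arrays stood above both variant 1 arrays in each. On the other side, hsa-mir-320 gave 2.53 and 3.01 against 1.90 and 1.59, a difference of -1.03 (-2.35 to 0.30), and hsa-miR-3173 gave 1.31 and 1.54 against 0.52 and 0.55, a difference of -0.89 (-2.19 to 0.41). The adjusted p in limma was between 0.918 and 0.920 for these 4 pairs.

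**Figure D5:**
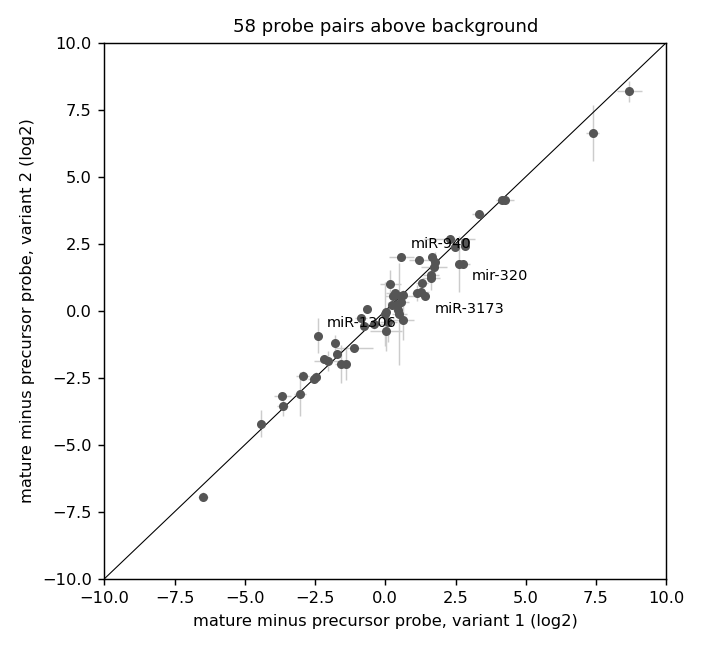
Mature-named minus precursor-named log2 signal, as the variant 1 mean on the x axis and the variant 2 mean on the y axis. Each point is 1 of the 58 pairs with both probes above background, and bars span the arrays of a group. Most of these pairs lie near the line of equal values, with hsa-miR-940 and hsa-miR-1306 above it and hsa-mir-320 below it.

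The plot of mature against precursor signal places most of the 58 pairs along the line of equal values. The named pairs between these ends were hsa-miR-1975 at 0.75, hsa-miR-636 at 0.69, hsa-miR-197 at -0.56 and hsa-miR-543 at -0.45. The precursor-named probe of hsa-miR-543 read 15.99 on all 4 arrays, the scanner's ceiling, so its pair follows the mature-named probe alone. Of the 58 pairs 23 were higher and 35 lower, with a median difference of -0.07.

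The balance of the strands of a hairpin was read from 150 pairs of a star and a mature probe. Of these 0 (0%) passed the test in limma, the smallest adjusted p was 0.751, and the pairs with an unadjusted p under 0.05 were 4 higher and 2 lower. The groups did not overlap for 38.7% of the pairs and for 62.5% of the 8 with both probes above background. hsa-miR-593* over hsa-miR-593 led, at -1.78 and -2.02 with variant 1 and -0.50 and 0.00 with variant 2, a difference of 1.65 (SE 0.48, 95% interval 0.44 to 2.85). The star probe was higher with variant 2 and the mature probe close to level, at -0.16. When only the 8 pairs above background were tested, this pair alone passed, with an adjusted p of 0.0277 in limma. The other 7 ranged from -1.01 for hsa-miR-877* to 0.41 for hsa-miR-124*.

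Of the 32 probes named for ultraconserved regions, 10 were higher and 22 lower with variant 2, with a median difference of -0.30. Only uc.106+A and uc.10+ were above background. uc.106+A read 8.42 and 9.07 with variant 1 and 8.40 and 7.67 with variant 2, a difference of -0.71 (-1.78 to 0.35), and uc.10+ read 7.33 and 8.17 against 7.66 and 7.12, a difference of -0.36 (-1.43 to 0.71). The mean of the 32 probes was 6.42 and 6.54 with variant 1 and 6.32 and 6.16 with variant 2. The arrays did not overlap, with an exact permutation p of 0.333 for the difference of -0.24. Of the 32, 30 were not above background on all 4 arrays, and the level that 95% of random-sequence probes stayed under was 6.76 and 6.94 with variant 1 and 7.27 and 6.75 with variant 2.

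Among probes not above background on all 4 arrays, those named for the smallest unadjusted p were hsa-miR-3171-P at 1.95, hsa-mir-941-4-P at 1.51 and hsa-miR-296-3p at 1.47 on the higher side, and hsa-miR-2276-P at -1.77 and hsa-miR-628-3p at -1.40 on the lower side. hsa-miR-2276-P exceeded the random-sequence level on 2 arrays, hsa-miR-296-3p and hsa-miR-628-3p on 1, and the other 2 on 0. Among the uc. probes the named ones were uc.104+A at 1.04, uc.107+A at 0.96, uc.103+ at -1.41 and uc.100+A at -0.81, all below that level on every variant array. On variant 1 arrays 703 and 585 tested probes exceeded that array's random-sequence level, and on variant 2 arrays 452 and 757 did.

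Control probes were kept out of the main test. The mean of the 4 small nucleolar RNA probes, which read abundant nuclear RNAs that the Microprocessor does not make, was 11.15 and 10.78 with variant 1 and 11.14 and 10.63 with variant 2, a difference of -0.08 with an exact permutation p of 0.667. The probe for human GAPDH, a glycolytic enzyme, read 6.51 and 6.40 against 7.13 and 7.58, a difference of 0.90, with mock arrays at 8.94 and 6.22. Of the variant arrays, only variant 2 array 2 read that probe above the random-sequence level. Mouse-named probes with a human namesake gave a second reading of many miRNAs. Across the 91 names with both probes above background the differences had the same sign in 65 and correlated with an r of 0.20, as a description of points from the same 4 arrays. The mouse-named probe of hsa-miR-339-3p differed by 0.35 and that of hsa-miR-1306 by -0.32, each above background on 3 arrays, so neither gave the difference of its human namesake.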

How the data were processed

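The deposited table holds log2 signals that the authors had already normalized, per the values in it; limma is named in the submitters' processing notes, without its role. How background was corrected and how arrays were normalized is not given in the sources used here. Columns were matched to samples by identifier. Tested were the probes whose names start hsa- or has-, without a mismatch tag, and the uc. probes. The 4 small nucleolar RNA probes were kept as controls. The 4 variant arrays were fitted without a filter on low signal in limma 3.58.1 under R 4.3.3, with 2 residual degrees of freedom and a further 4.67 from the prior. P-values were two-sided and adjusted by the Benjamini-Hochberg method, with a threshold of 0.05. Pairs of probes were tested on their log2 difference per array in the same way. Measures with 1 value per array had an exact permutation test over the 6 splits. Replicates were numbered in order of deposit and pair nothing. The limma steps were tested on simulated data.

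Probes were named by rule. Where none passed, the rule took the 8 higher and 8 lower probes of smallest unadjusted p among those above background whose groups did not overlap, 4 of each among all probes, 2 of each among uc. probes, 4 of each among pairs above background, the 6 brightest mature-named probes under the scanner's ceiling, where hsa-miR-1273c stood, hsa-miR-195 and its star strand, and for each list its brightest member and the one of smallest p. The members and the 23 miRNA lists were chosen with earlier results of these data known. Sequences came from RefSeq, 97 of 218 by name and 121 through an older name. Alternatives covered the arrays in the fit, the prior, filters, scaling and single arrays left out.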

Additional observations from a re-analysis of the deposited data

How the results depend on the processing

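The count of probes that passed was 0 with all 6 arrays in the fit, a trended or robust prior, either filter on dim probes, median-centred or quantile-normalized arrays, all probes of the table, or, chosen after the data were seen, the small nucleolar RNA probes added or a GC trend removed. Leaving out 1 array gave 0 to 4. Without variant 1 array 1 the 3 were hsa-miR-548h4-P, hsa-miR-891a and hsa-mir-520h-P, and without variant 1 array 2 the 4 were hsa-miR-199b-5p, hsa-mir-513c, hsa-miR-520d-5p and hsa-mir-598-P. All 7 were higher with variant 2, none stood above background on all 4 arrays, and all but hsa-miR-199b-5p were picked out after their values were seen. A lone array is assumed there to vary like the other group. The count at an unadjusted p under 0.05 was 89, but 29 with only probes above background, 40 with probes above background on at least 2 arrays and 18 with the GC trend removed, where fewer probes were tested. For mature-minus-precursor pairs the 0 that passed became 0 to 3 when 1 array was left out: 3 without variant 2 array 1 (hsa-miR-196b, hsa-mir-513c and hsa-miR-598, each picked out after its value was seen) and 1 without variant 2 array 2 (hsa-miR-1302). The 32 at an unadjusted p under 0.05 became 4 above background and 18 to 37 with 1 array left out. For star-minus-mature pairs 1 passed when only the 8 pairs above background were tested, and the 6 at an unadjusted p under 0.05 became 1 there and 3 to 12 with 1 array left out. With the random-sequence maximum as background, 352 probes stood above it instead of 400. Of the probes led with, hsa-miR-1306, hsa-mir-560-P and has-let-7f-1* were not above that maximum on all 4 variant arrays.

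Of 74 named probes, 19 changed sign under some setting, none of them one of the 16 led with. Those 16 were chosen for groups without overlap, so leaving out 1 array could not change their sign. With 1 array left out the difference ranged from -0.77 to 0.21 for hsa-miR-92a, from -0.87 to 0.53 for hsa-miR-1280, from -0.67 to 0.22 for hsa-miR-1260b, from -0.0466 to 0.48 for hsa-miR-195 and from -2.05 to 0.68 for hsa-miR-195*. It ranged from -0.32 to 0.14 for hsa-miR-29a, from -0.23 to 0.35 for hsa-miR-30d, from -0.62 to 0.25 for hsa-miR-23b, from -0.14 to 0.43 for hsa-miR-192, from -0.29 to 1.66 for hsa-miR-194*, from -0.12 to 0.19 for hsa-miR-1246, from -0.84 to 0.0902 for hsa-miR-203, from -0.0048 to 0.16 for hsa-miR-320e, from -0.0003 to 0.0001 for hsa-miR-543-P, from -0.0018 to 0.36 for hsa-miR-373*, from -0.19 to 0.19 for hsa-miR-122 and from -1.05 to 0.22 for hsa-miR-214. With the GC trend removed it was 0.0801 for hsa-miR-553, 0.0688 for hsa-miR-29a and 0.10 for hsa-miR-21, and for hsa-miR-122 it was -0.0032 with median-centred and -0.0102 with quantile-normalized arrays. Of the 23 list medians, 4 had 1 sign in every setting: let-7 (-0.61 to -0.30), the miR-17 clusters (-0.28 to -0.02), the Microprocessor list (-0.39 to -0.03) and the 14q32 cluster (-0.34 to -0.03). The other 19 took both signs, and 41 of 204 medians moved by over 1 SD. The cause was not tested. No paired analysis was possible because the labels give the arrays no replicate numbers.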
